A study of Mus musculus with 2 samples.

Results

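Complement transcripts were followed in single cells of mouse cornea and limbus, through 8 genes of 32285 listed: the C1 protease genes C1ra, C1rb, C1s1 and C1s2, the central components C4b and C3, the alternative pathway protease gene Cfb, and Serping1, which encodes the C1 inhibitor. The 8 genes were selected on their measured UMI levels in these same libraries, so all levels and ratios are given as a description and no test was made of them. All 8 were found in both libraries. One library was labelled Pax6 heterozygous (genotype Pax6 +/-, title Pax6het) and the other wild type (wt), and both came from the anterior segment without lens, retina and iris and with most of the conjunctiva removed, digested with liberase and then trypsin. Strain, sex, age and the Pax6 allele are not given in the labels. The series design names 2 mice of each genotype, but there is 1 library per genotype, and whether mice were pooled is not stated. There were thus no replicates, and "higher" and "lower" describe these 2 libraries; each interval is a 95% interval for counting error only, not for differences between mice or dissections.

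The library labelled Pax6 heterozygous held 131567589 unique molecular identifiers (UMIs, each standing for 1 captured transcript) in 10574 barcodes, and the wt library 124540296 in 11354. Filtering kept 9542 cells of the library labelled Pax6 heterozygous (median 12537 UMIs) and 10154 wt cells (median 10218.5 UMIs), and 33 barcodes occurred among the kept cells of both. Levels are given in CPM, the UMIs of a gene scaled to a common total of its class. In epithelial cells Pax6 itself stood at 822 CPM in the library labelled Pax6 heterozygous and at 378 CPM in wt. The allele is not given, and whether it is still transcribed is not known, so these levels cannot test the label. The library labelled Pax6 heterozygous is called Pax6het below, by its label alone. Cells that carried Xist but no Y-linked transcript (Xist-only) made up 46.2% of the Pax6het and 94.6% of the wt cells. Those with a Y-linked transcript but no Xist (Y-only) made up 39.4% of the Pax6het and 0 wt cells. The Pax6het library thus held cells of both sexes, and so of more than 1 mouse. Cell classes were built from fixed marker genes, and each class name below stands for cells that are like that type. Keratocytes, the stromal cells of the cornea, were split at 10 Kera UMIs per 10000 into Kera-high cells (577 Pax6het, 596 wt) and Kera-low cells (434 Pax6het, 124 wt). The Kera-high cells lay mostly in different clusters, with 527 of the Pax6het in one and 540 of the wt in another. The other classes were mural cells (533 Pax6het, 56 wt), blood endothelium (313 Pax6het, 82 wt), lymphatic endothelium (178 Pax6het, 14 wt), Schwann cells (280 Pax6het, 75 wt), myeloid cells (105 Pax6het, 36 wt) and epithelium (6051 Pax6het, 9158 wt). T or NK cells numbered 20 Pax6het and 4 wt and were too few to use.

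Complement is a cascade of plasma and tissue proteins that tags surfaces for removal. In its classical arm the proteases C1r and C1s, bound to C1q, cleave C4 and C2 to build an enzyme that splits C3, and in the alternative arm factor B joins cleaved C3 to make a second such enzyme. The C1 inhibitor locks active C1r and C1s and pulls them off the complex. The liver makes most circulating complement, and fibroblasts and macrophages are known to make some of it locally. Mice, unlike humans, carry duplicated genes for C1r (C1ra and C1rb) and for C1s (C1s1 and C1s2).

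In the GENCODE M21 annotation the duplicated genes lie together on GRCm38 chromosome 6, with C1ra at 124512405 to 124523443 and C1rb at 124570294 to 124581171 on the plus strand, and C1s1 at 124530345 to 124542359 and C1s2 at 124624625 to 124636085 on the minus strand. C4b (34728380 to 34743882), Cfb (34856374 to 34862518) and C3 (57203970 to 57228136) lie on the minus strand of chromosome 17, and Serping1 lies on the minus strand of chromosome 2 (84765387 to 84775444). The start regions of C1ra and C1rb are printed because these genes are close in sequence and yet had ratios between the libraries that lay far apart. Both windows are from RefSeq (GRCm38.p6, plus strand, 250 bases before to 50 after the RefSeq start, 5′ to 3′), at chr6:124512371-124512670 for C1ra and chr6:124570180-124570479 for C1rb. Capitals mark runs of at least 15 bases that also occur in the other window.
C1ra: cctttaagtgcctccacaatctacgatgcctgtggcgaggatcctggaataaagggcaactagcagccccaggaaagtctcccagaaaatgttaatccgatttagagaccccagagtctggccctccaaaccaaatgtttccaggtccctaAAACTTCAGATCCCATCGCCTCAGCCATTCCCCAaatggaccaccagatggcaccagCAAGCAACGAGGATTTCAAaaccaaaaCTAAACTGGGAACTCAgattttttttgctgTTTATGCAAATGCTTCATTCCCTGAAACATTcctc
C1rb: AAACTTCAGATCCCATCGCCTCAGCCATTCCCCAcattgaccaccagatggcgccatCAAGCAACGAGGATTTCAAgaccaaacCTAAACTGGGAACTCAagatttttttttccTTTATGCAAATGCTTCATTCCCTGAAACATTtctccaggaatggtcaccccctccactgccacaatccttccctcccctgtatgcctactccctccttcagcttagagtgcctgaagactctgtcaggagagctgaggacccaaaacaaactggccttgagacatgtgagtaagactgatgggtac

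The capitals cover 100 of the 300 bases of each window, and 139 of 150 aligned bases (92.7%) were identical. The shared stretch lies at the end of the C1ra window and at the beginning of the C1rb window. Its last run holds the letters TTCNNNGAA, the motif known as GAS, and a match to TTGCNNAA, the C/EBP motif. This run lies after the RefSeq start in the C1ra window but before the RefSeq start in the C1rb window. Searched on both strands, each motif had 1 match in C1ra and 1 in C1rb; TTCNNNGAA occurred in 8.47% and TTGCNNAA in 10.8% of 27025 RefSeq windows of that length. The ISRE and NF-kB consensus motifs, found in 3.49% and 1.43% of all windows, had no match in either. The windows of C1s1 and C1s2 shared no run of 15 bases, and of the motifs C1s1 and C3 each held 1 match to TTGCNNAA and C1s2 none. C4b, Cfb and Serping1 had no window in the table.

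In keratocytes C1ra and C1s1, which encode C1r and C1s, stood within 1.5-fold of each other in the libraries when all cells were taken, while the duplicates C1rb and C1s2 were counted almost only in the library labelled Pax6 heterozygous. In Kera-high cells C1ra stood at 168 CPM (160 to 177) in the Pax6het library and at 194 CPM (182 to 206) in wt, a ratio of 0.867 (0.801 to 0.939; every ratio is Pax6het over wt). In Kera-low cells the level of C1ra was 172 CPM in the Pax6het library against 181 CPM in wt, a ratio of 0.952 (0.783 to 1.16). Within the 1 keratocyte cluster with at least 20 cells of both libraries, 377 Pax6het and 91 wt cells that were mostly Kera-low, the ratio of C1ra was 0.641 (0.518 to 0.80). C1s1 stood at 393 CPM (380 to 406) in Pax6het and 422 CPM (405 to 439) in wt Kera-high cells. In Kera-low cells it stood at 381 CPM in the Pax6het library and 295 CPM in wt, a ratio of 1.29 (1.11 to 1.5). Among Xist-only cells, the one kind of the 2 that wt held, C1s1 in Kera-low cells stood at 281 CPM in the Pax6het library and 299 CPM in wt, a ratio of 0.939 (0.782 to 1.13). Likewise C1ra stood at 129 CPM in Pax6het and 195 CPM in wt Xist-only Kera-high cells, a ratio of 0.662 (0.562 to 0.776), and at 129 CPM in Pax6het and 177 CPM in wt Xist-only Kera-low cells, a ratio of 0.727 (0.565 to 0.939). With median-of-ratios scaling the Kera-high ratios over all cells were 1.03 for C1ra and 1.10 for C1s1, so their direction depends on the scaling. Across all genes that reached 20 CPM in 1 library or both, the median log2 ratio was −0.19 in Kera-high and −0.12 in Kera-low cells, against −0.21 for C1ra in Kera-high cells.

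C1rb had 492 UMIs in 577 Pax6het and 3 UMIs in 596 wt Kera-high cells, or 54.6 CPM (49.9 to 59.7) against 0.545 CPM (0.112 to 1.59), a ratio of 100.2 (34.1 to 487). A C1rb UMI was found in 54.1% of Pax6het (median 16357 UMIs) and 0.503% of wt Kera-high cells (median 9684.5), against 0.760% of Pax6het (median 13388) and 0 of 9158 wt epithelial cells (median 10694). In Kera-low cells there were 281 UMIs in the Pax6het library (62.4 CPM) and 0 in wt. Set against a floor of 3 UMIs in that class, C1rb was at least 13.6-fold higher in the Pax6het Kera-low cells. C1s2 had 490 UMIs in Pax6het and 1 UMI in wt Kera-high cells, or 54.4 CPM (49.7 to 59.4) against 0.182 CPM (0.00460 to 1.01), with a ratio of 299 (53.5 to 11845). In Kera-low cells its counts were 217 in the Pax6het library (48.2 CPM) and 0 in wt, at least 10.5-fold higher. In the shared keratocyte cluster C1rb stood at 53.8 CPM and C1s2 at 42.2 CPM in the Pax6het cells, with 0 UMIs of either in wt.

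**Figure D1:**
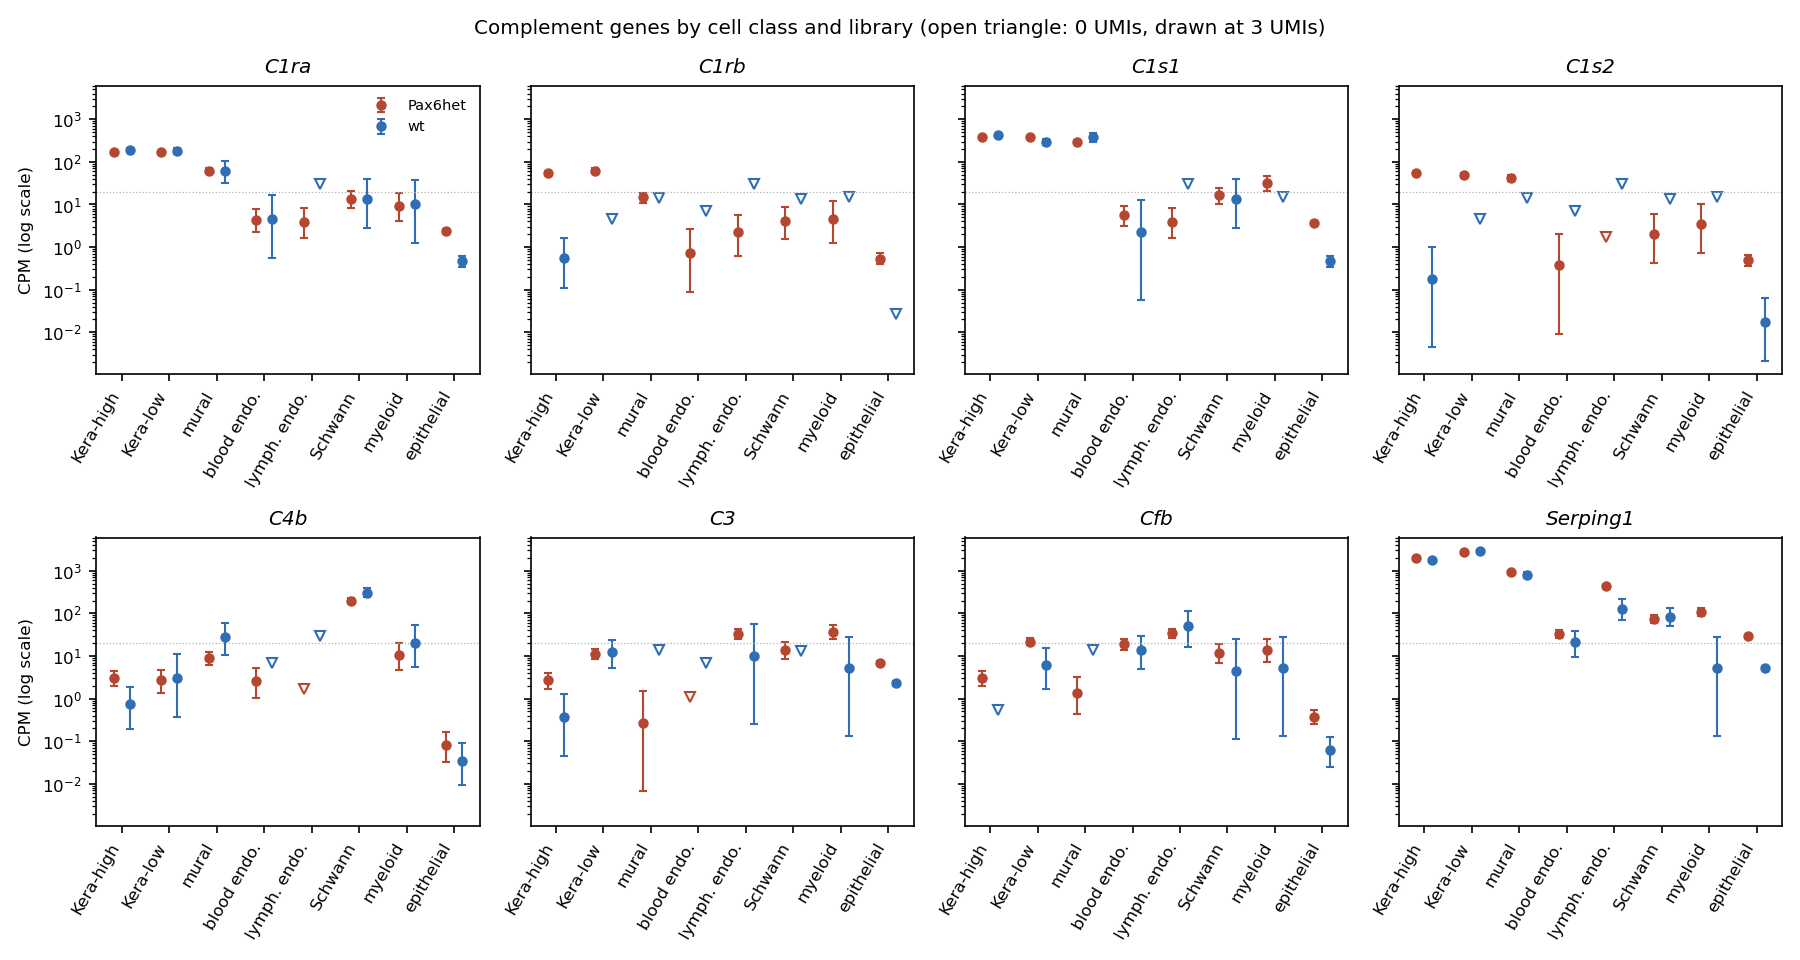
Level of each complement gene in CPM (log axis) in 8 cell classes, Pax6het left of wt; bars are 95% Poisson intervals, open triangles mark 0 UMIs and are drawn at 3 UMIs, and the dotted line is 20 CPM. C1ra and C1s1 lie together in both libraries in keratocytes and mural cells, while C1rb and C1s2 stand at 54.6 and 54.4 CPM in Pax6het Kera-high cells against 0.545 and 0.182 CPM in wt.

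Mural cells, which wrap small vessels, held C1s2 in the Pax6het library alone, and their C1rb counts were too low to compare. C1ra stood at 61.9 CPM in Pax6het and 60.7 CPM in wt mural cells (229 Pax6het and 13 wt UMIs), a ratio of 1.02 (0.585 to 1.94). C1s1 stood at 299 CPM in the Pax6het library and 373 CPM in wt, with a ratio of 0.801 (0.638 to 1.02). C1s2 had 155 UMIs (41.9 CPM) in Pax6het mural cells and 0 in wt, at least 2.99-fold higher against the floor. C1rb had 54 UMIs (14.6 CPM) in the Pax6het library and 0 in wt, at least 1.04-fold higher, so a difference in C1rb was not detectable at this depth. In blood endothelium C1ra stood at 4.43 CPM in Pax6het and 4.60 CPM in wt cells, and C1s1 at 5.54 CPM in Pax6het and 2.30 CPM in wt cells. Schwann cells held 13.7 CPM of C1ra in the Pax6het library and 13.3 CPM in wt. These levels lay far below those of keratocytes, and intervals of both libraries overlapped.

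The duplicates held a steady part of each pair in the Pax6het library and nearly none in wt. C1rb made up 24.5% (22.6 to 26.5, Clopper-Pearson) of C1rb plus C1ra UMIs in Pax6het Kera-high cells, 26.7% in Kera-low cells and 19.1% (14.7 to 24.1) in mural cells, and in wt 0.280%, 0 of 118 UMIs and 0 of 13 UMIs. Over all kept cells it was 24.2% of 3699 UMIs in the Pax6het library and 0.238% of 1261 UMIs in wt. C1s2 made up 12.1% (11.2 to 13.2) of its pair in Pax6het Kera-high cells, 11.2% in Kera-low cells and 12.3% in mural cells, against 0.0431% of 2321 UMIs, 0 of 193 and 0 of 80 UMIs in wt. Over all kept cells the C1s2 share was 11.9% of 7692 UMIs in the Pax6het library and 0.113% of 2653 UMIs in wt. The 0 counts of wt Kera-low cells allow shares of up to 2.54% for C1rb and 1.55% for C1s2. Both sexes of Pax6het cells carried the duplicates. In Xist-only Kera-high cells C1rb made up 29.0% (23.4 to 35.0) and C1s2 11.6% (9.16 to 14.5) of the pair, and in Y-only cells 23.2% (21.1 to 25.4) and 12.3% (11.2 to 13.6).

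**Figure D2:**
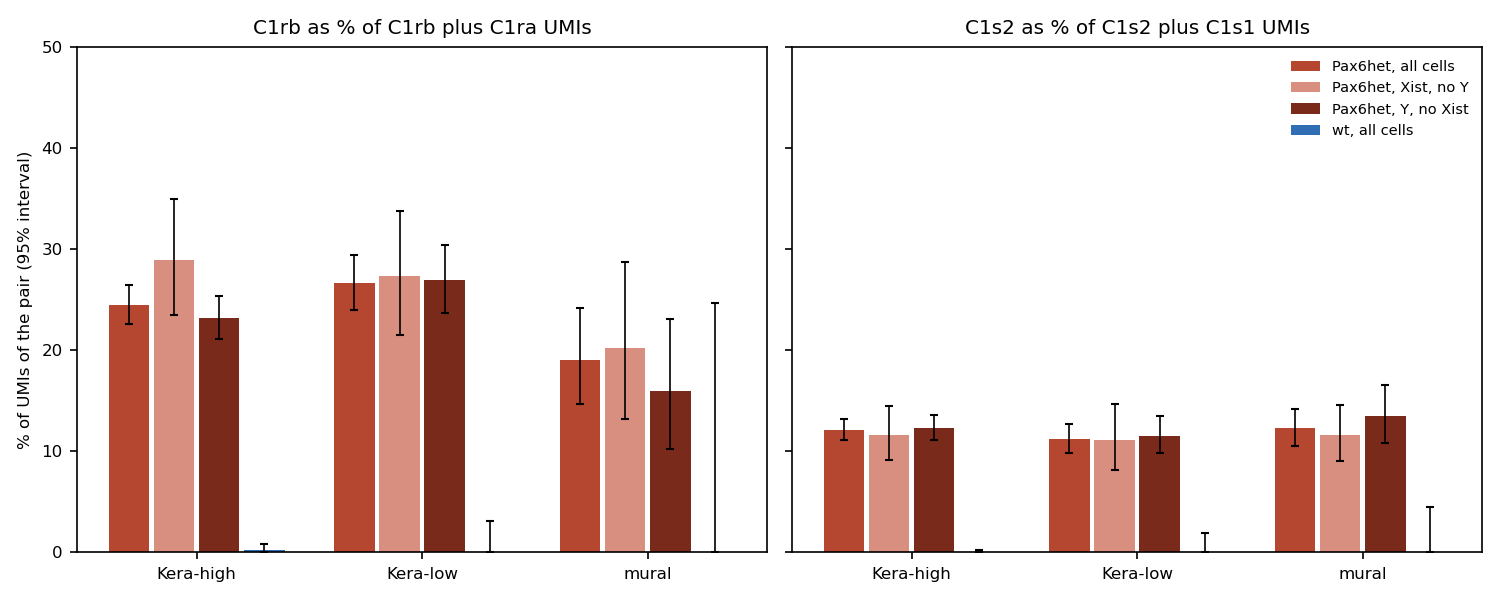
UMIs of C1rb (left) and C1s2 (right) as a percentage of their pair in keratocytes and mural cells, with 95% Clopper-Pearson intervals, for all Pax6het cells, Pax6het cells split by sex-linked transcripts, and all wt cells. The Pax6het C1s2 shares lie between 11.1% and 13.5% in every class and split, while the wt shares are at or near 0.

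Mapping bears on both pairs. The annotated transcripts of C1ra and C1rb were 97.9% identical over 2432 aligned bases, and those of C1s1 and C1s2 96.0% identical over 2644. Of all 50-base stretches of the C1ra transcript 48.0% occurred unchanged in C1rb, and 59.2% of those of C1rb in C1ra; for C1s1 and C1s2 the shares were 24.3% and 26.9%. In the last 500 bases, where a 3′ method mostly reads, the shares were 19.1% for C1ra, 43.2% for C1rb and 18.0% for C1s1 and C1s2. A read wholly within such stretches cannot be given to 1 gene of a pair, but a longer read may reach a base that differs. Read length was not taken into account, so these shares are not shares of reads. How the authors' pipeline treated shared reads was not tested. Whether the libraries share a strain, and thus the same sequence at these genes, was not tested either. Gm16567, an antisense gene that overlaps C1s1 by 11400 bases, had 7 UMIs in Pax6het and 4 in wt keratocytes, and whether counting used strand is not given in the sources used here.

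Most genes around the cluster lay within 2-fold of each other in the libraries. Within 1000 kb of the start of C1ra, 27 of 68 listed genes reached 20 CPM in keratocytes. Of these 3 were at least 2-fold higher in the Pax6het library and 0 lower, and their median log2 ratio was 0.08, where 8.36% and 6.33% of all 7091 tested genes were higher and lower. The 3 were C1rb, C1s2 and Pianp, a gene 484 kb away that stood at 52.5 CPM in Pax6het and 0.325 CPM in wt keratocytes. C1rl, a C1r-like gene of the same region, stood at 16.7 CPM in Pax6het and 23.4 CPM in wt keratocytes.

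**Figure D3:**
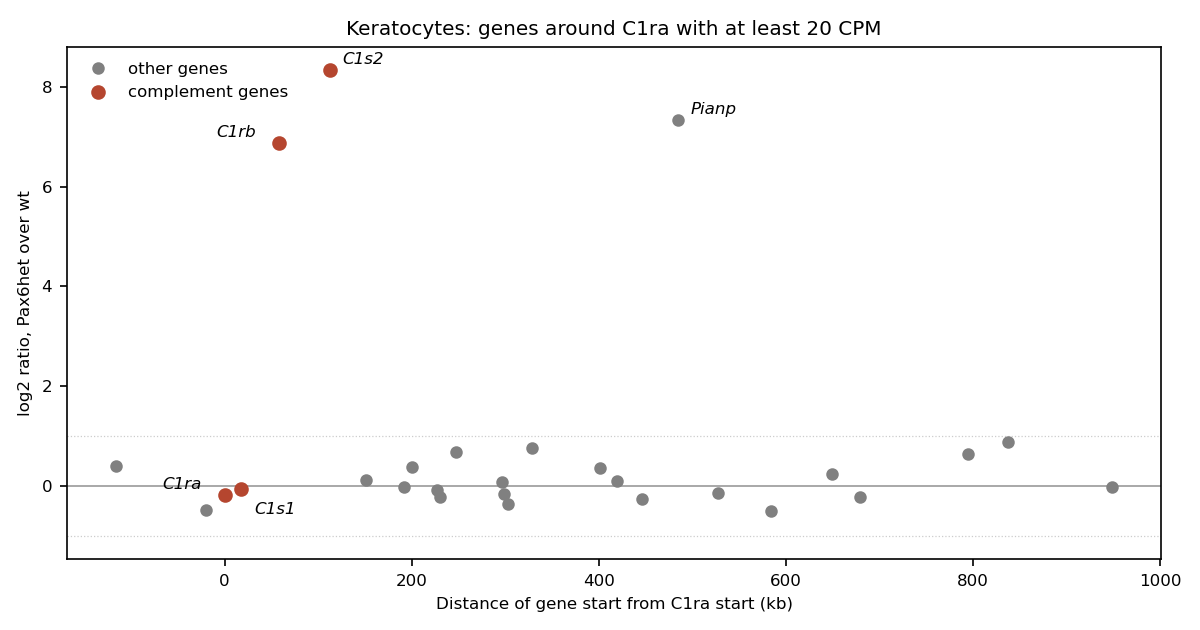
log2 ratio of CPM in keratocytes (Pax6het over wt) against the distance of each gene's start from the start of C1ra in kb, for the 27 genes with at least 20 CPM; dotted lines mark 2-fold. C1rb, C1s2 and Pianp stand above 6 on the log2 scale and the other 24 genes lie between the dotted lines.

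C4b, which encodes the C4 that C1s cleaves, was mainly a Schwann cell transcript. It stood at 200 CPM (178 to 224) in Pax6het and 306 CPM (238 to 387) in wt Schwann cells, with 292 and 69 UMIs and a ratio of 0.654 (0.502 to 0.863). In the Schwann cluster led by Scn7a and Cdh19 it stood at 234 CPM in 188 Pax6het cells and 395 CPM in 57 wt cells. C4b UMIs were found in 52.1% of Pax6het and 46.7% of wt Schwann cells, against 0.116% of Pax6het and 0.0328% of wt epithelial cells, where the median depth was 4682 and 2611 UMIs in Pax6het and wt Schwann cells and 13388 and 10694 UMIs in Pax6het and wt epithelial cells. In mural cells C4b stood at 8.92 CPM in the Pax6het library and 28.01 CPM in wt, a ratio of 0.318 (0.132 to 0.930) that rests on 33 and 6 UMIs. Without the cell with most C4b UMIs in each library the ratio was 0.424, with C4b under 20 CPM in both. The near copy C4a, 96.0% identical to C4b over 5379 aligned bases, had 0 UMIs in Schwann cells of both libraries, and in epithelium it had more UMIs than C4b (51 against 7 in the Pax6het library and 22 against 4 in wt).

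C3, the component on which all arms converge, was low in keratocytes and differed between their subsets. In Kera-high cells it stood at 2.66 CPM in the Pax6het library and 0.363 CPM in wt (24 and 2 UMIs), and in Kera-low cells at 11.3 CPM (8.44 to 14.9) in the Pax6het library and 12.2 CPM (5.28 to 24.1) in wt. Xist-only Pax6het Kera-low cells held 27.9 CPM (19.3 to 39.0) of C3, and Y-only ones 6.23 CPM (3.56 to 10.1). Xist-only and Y-only cells come from different mice, and the design names 2 mice of this genotype, so sex and mouse cannot be told apart. What else separates these cells was not tested. Lymphatic endothelium held 33.4 CPM in the Pax6het library (59 UMIs in 178 cells) and 9.84 CPM in wt (1 UMI in 14 cells), with a ratio of 3.39 (0.586 to 136), which was 1.55 without the 5% highest doublet scores. Without the cell with most C3 UMIs in each library wt held 0 UMIs, and the bound of 0.991 gave no direction. Myeloid cells held 37.4 CPM in the Pax6het library and 5.12 CPM in wt (32 and 1 UMIs), and the ratio of 7.30 (1.22 to 297) was at least 1.94 without the top cell of each library. Blood endothelium held 0 UMIs in both libraries, which allows up to 1.11 CPM in Pax6het and 6.90 CPM in wt cells.

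In epithelium C3 stood at 6.91 CPM (6.37 to 7.48) in the library labelled Pax6 heterozygous and at 2.27 CPM (2.00 to 2.56) in wt, a ratio of 3.04 (2.63 to 3.53) below the 20 CPM limit. In cells with at least 20 UMIs of Krt12, the corneal keratin, per 10000, it stood at 19.6 CPM (16.7 to 22.8) in 554 Pax6het cells and 2.22 CPM (1.95 to 2.51) in 8978 wt cells. In cells with less Krt12 it stood at 5.58 CPM in 5497 Pax6het cells and 5.14 CPM in 180 wt cells, which rests on 10 wt UMIs. The highest epithelial level was in a cluster of 201 Pax6het and 4 wt cells, at 33.9 CPM in the Pax6het cells, where C3 was among the 10 leading genes. In the one epithelial cluster with at least 100 cells of both libraries C3 stood at 18.1 CPM in 202 Pax6het cells and 4.68 CPM in 102 wt cells. C3 in epithelium reached 124% (97.8 to 160) of the keratocyte level in the Pax6het library and 140% (74.7 to 295) in wt, unlike the keratocyte matrix genes given below.

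Cfb, which encodes factor B, was found in Kera-low cells, endothelium, myeloid cells and Schwann cells. In Kera-low cells it stood at 21.8 CPM (17.7 to 26.5) in the Pax6het library and 6.12 CPM (1.67 to 15.7) in wt. These levels rest on 98 Pax6het and 4 wt UMIs, with a ratio of 3.56 (1.35 to 13.3). Of the 4 wt UMIs 3 came from 1 cell, and over the alternatives the ratio lay between 2.74 and 12.8. In the shared keratocyte cluster the levels were 25.1 CPM in Pax6het and 7.44 CPM in wt cells, a ratio of 3.38 (1.27 to 12.7). As for C3, Xist-only Pax6het Kera-low cells had more (42.7 CPM, 31.9 to 55.9) than Y-only ones (16.8 CPM, 12.1 to 22.6), again between different mice. Markers of the lens moved with this class: the 5 lens genes summed to 237 CPM in Pax6het and 7.65 CPM in wt Kera-low cells, where Cryaa, Cryba1, Crygs and Mip were at 0, and their part in the result was not tested. Kera-high cells had 27 Cfb UMIs (2.997 CPM) in the Pax6het library and 0 in wt. Lymphatic endothelium held 34.0 CPM of Cfb in the Pax6het library and 49.2 CPM in wt (60 and 5 UMIs), and blood endothelium 18.8 CPM in the Pax6het library and 13.8 CPM in wt, with overlapping intervals in both. Myeloid cells held 14.01 CPM in the Pax6het library and 5.12 CPM in wt (12 Pax6het UMIs and 1 wt UMI), and Schwann cells held 11.6 CPM in the Pax6het library and 4.43 CPM in wt (17 Pax6het UMIs and 1 wt UMI).

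Serping1 alone of the 8 had UMIs in each of the 8 classes of both libraries, and it was highest in stromal cells of both libraries. Kera-low cells held 2823 CPM (2774 to 2873) in the Pax6het library and 2836 CPM (2709 to 2969) in wt, a ratio of 0.995 (0.948 to 1.05). Kera-high cells held 2018 CPM (1989 to 2048) in the Pax6het library and 1774 CPM (1739 to 1810) in wt, a ratio of 1.14 (1.11 to 1.17). In mural cells the levels were 917 CPM in the Pax6het library and 789 CPM in wt, a ratio of 1.16 (0.996 to 1.36). Among Xist-only cells the ratio was 0.779 (0.734 to 0.828) in Kera-low and 1.01 (0.969 to 1.06) in Kera-high cells. Over all cells the order of classes was the same in both libraries down to mural cells, with Kera-low above Kera-high and Kera-high above mural. After thinning every cell to 2000 UMIs, 94.3% of Pax6het and 93.5% of wt Kera-high cells still held a Serping1 UMI, as did 77.2% of Pax6het and 71.2% of wt mural cells.

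Lymphatic endothelium came next, with 435 CPM (405 to 467) of Serping1 in the Pax6het library and 128 CPM (68.1 to 219) in wt, a ratio of 3.40 (1.98 to 6.42) from 769 and 13 UMIs. Schwann cells held 73.9 CPM in the Pax6het library and 84.1 CPM in wt, and blood endothelium 32.5 CPM in the Pax6het library and 20.7 CPM in wt, with overlapping intervals. The epithelial marker list was lower in Pax6het than in wt cells of these small classes, at 2135 against 9475 CPM over 14 genes in lymphatic endothelium, with Krt13, Krt4 and Krt19 at 0 in wt; its part in the lymphatic ratio was not tested. In myeloid cells Serping1 stood at 106 CPM in the Pax6het library and 5.12 CPM in wt, but 59 of its 91 Pax6het UMIs came from 1 cell, and without the top cell of each library it was at least 2.30-fold higher. The same class had keratocyte markers at a sum of 2708 CPM in the Pax6het library and 220 CPM in wt, with Ptgds at 0 in both and Col3a1, Col5a2 and Pdgfra at 0 in wt. C1s1, at 31.5 CPM in Pax6het myeloid cells with 0 UMIs in wt, had 13 of its 27 UMIs in 1 cell, without which it was at least 1.09-fold higher.

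In epithelium Serping1 stood at 29.6 CPM (28.5 to 30.8) in the library labelled Pax6 heterozygous and at 5.31 CPM (4.89 to 5.75) in wt, a ratio of 5.57 (5.10 to 6.10). By cluster, the Pax6het level was 54.9 CPM in 1444 cells led by Egr4 and Fst, 39.7 CPM in 1674 cells led by Cpa6 and Kcnip4, and 11.7 CPM in 875 cells led by Lgi2. In the cluster with over 100 cells of both libraries it was lower in the Pax6het cells, at 28.4 CPM (23.1 to 34.6) against 50.6 CPM (38.0 to 66.0) in wt. Among cells with little Krt12 the level was 29.9 CPM in the Pax6het library and 37.0 CPM in wt, and among cells with more Krt12 it was 26.6 CPM in 554 Pax6het and 4.76 CPM in 8978 wt cells. Cells with little Krt12 were 5497 of the 6051 Pax6het and 180 of the 9158 wt epithelial cells, and the part of this difference in the ratio was not tested.

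Keratocyte markers also moved with the epithelial ratio, as all 11 were detected in both libraries and summed to 391 CPM in Pax6het and 74.5 CPM in wt epithelium. The stromal genes Dcn, Lum, Kera, Col1a1, Col1a2 and Col3a1 stood in epithelium at 0.176% to 0.255% of their keratocyte level in the Pax6het library and at 0.0616% to 0.115% in wt. Serping1 stood at 1.29% (1.24 to 1.35) of its keratocyte level in Pax6het and 0.281% (0.259 to 0.305) in wt epithelium. C1ra stood at 1.39% (1.20 to 1.602) in Pax6het and 0.241% in wt epithelium, and C1s1 at 0.946% in Pax6het and 0.114% in wt epithelium. C1rb and C1s2 reached 0.933% each in the Pax6het library. In Pax6het epithelium Serping1 and the 4 protease genes stood above the range of the matrix genes, and in wt C1s1 lay within it. The part of stromal RNA in the epithelial levels was not tested.

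**Figure D4:**
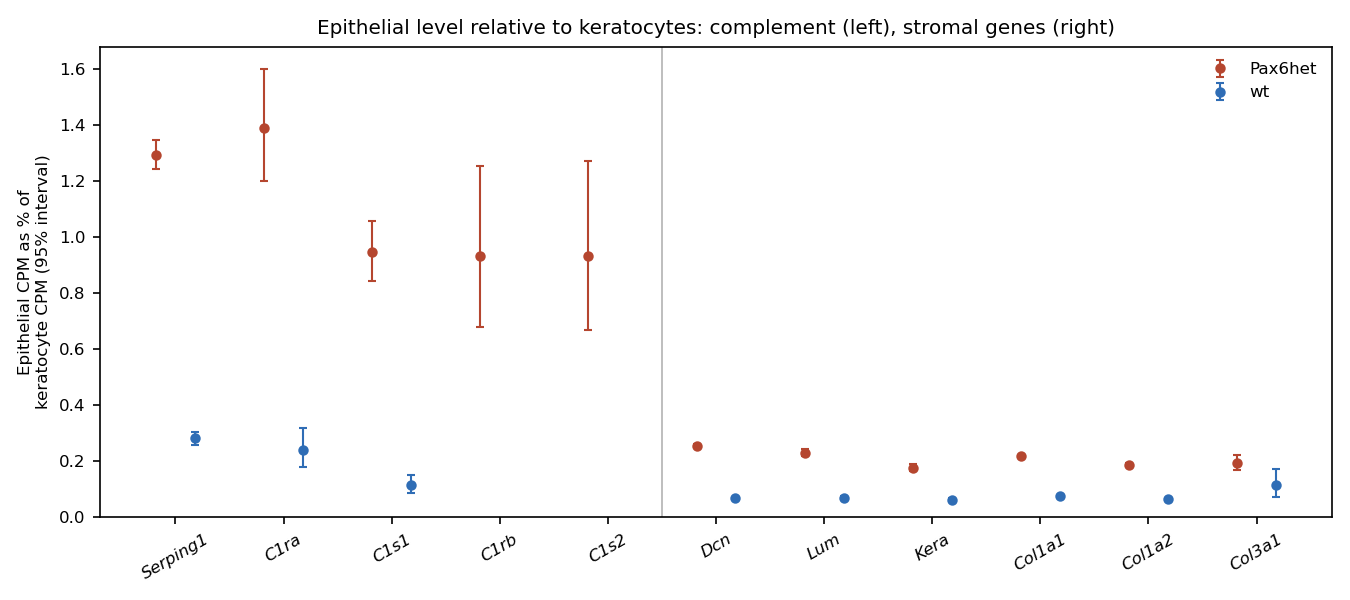
Epithelial CPM as a percentage of keratocyte CPM for 5 complement genes and 6 stromal matrix genes, Pax6het left of wt, with 95% intervals; C1rb and C1s2 had too few wt keratocyte UMIs to be shown. The Pax6het complement points lie between 0.933% and 1.39%, above the matrix genes at 0.176% to 0.255%.

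Counted by class, the members past 2-fold were mostly higher in Pax6het. In Kera-high cells 5 of 8 members had at least 20 CPM in either library, 2 were at least 2-fold higher (C1rb and C1s2) and 0 lower, where 8.36% of 6965 genes were higher and 8.54% lower. In Kera-low cells 6 passed the limit and C1rb, C1s2 and Cfb were higher, 3 in all and 0 lower, beside 7.05% and 7.15% of all genes. In mural cells C1s2 was higher and C4b lower of 5, beside 12.2% and 9.44%. In lymphatic endothelium C3 and Serping1 were higher of 3, beside 13.6% higher and 11.3% lower. In myeloid cells C1s1, C3 and Serping1 were higher of 4, beside 15.1% higher and 16.9% lower. In epithelium Serping1 alone passed the limit and was higher, beside 13.9% higher and 6.55% lower. Neither blood endothelium (1 member past the limit, 8.67% higher and 5.25% lower) nor Schwann cells (2 members, 14.4% higher and 8.11% lower) had a member past 2-fold. The median log2 ratio of the members past the limit was 0.19 in Kera-high and 1.10 in Kera-low cells, against −0.19 and −0.12 of all genes. A member that passed only through the library where it is high had to differ, so these counts carry no test.

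Among other complement genes, several soluble and membrane regulators differed between the libraries. Clu, which encodes clusterin, an inhibitor of the terminal complex, stood at 286 CPM in Pax6het and 15.6 CPM in wt Kera-high cells, a ratio of 18.3 (14.8 to 22.99), and at 708 CPM in Pax6het and 286 CPM in wt Kera-low cells. Csmd1, a large membrane regulator, had 193 UMIs in Pax6het Kera-high cells against 1 in wt, and in Kera-low cells it was lower, at 52.0 CPM in Pax6het against 118 CPM in wt. Susd4, another membrane regulator, stood at 21.4 CPM in Pax6het and 94.1 CPM in wt Kera-high cells. Of the 15 regulator genes 5 passed 20 CPM in Kera-low cells, with 2 higher (Clu and Cd59a) and 1 lower (Csmd1). Cd59a, which blocks the membrane attack complex, stood at 74.2 CPM in Pax6het and 16.8 CPM in wt Kera-low cells. Of the 15 initiators and serine proteases only Masp1 and Colec12 passed in keratocytes, and neither was past 2-fold.

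Other classes had their own sets. In myeloid cells the C1q genes, which belong to the initiators and which macrophages are known to make, stood at 4665 against 2103 CPM (C1qa), 2114 against 1279 CPM (C1qb) and 2981 against 1694 CPM (C1qc), Pax6het against wt. Of that list 5 passed there, with C1qa, Colec12 and Cfp higher and 0 lower, beside 15.1% and 16.9% of all genes. The epithelial marker list summed to 1991 CPM in Pax6het and 19602 CPM in wt myeloid cells, with Krt4 and Krt19 at 0 in wt. The neutrophil list summed to 46.7 CPM in Pax6het and 558 CPM in wt, with Retnlg at 0 in both and S100a8, S100a9 and Cxcr2 at 0 in Pax6het. Their part in these levels was not tested. In epithelium Cd59a stood at 40.2 CPM in Pax6het and 10.6 CPM in wt cells, C1qbp, a mitochondrial protein that also binds C1q, at 212 CPM in Pax6het and 76.9 CPM in wt cells, and Susd4 at 18.0 CPM in Pax6het and 47.5 CPM in wt cells. In mural cells C2, the partner of C4 in the classical enzyme, stood at 45.1 CPM in Pax6het against 18.7 CPM in wt (4 wt UMIs), and Colec11 at 33.5 CPM in Pax6het against 84.0 CPM in wt. In Schwann cells Csmd1 stood at 9494 CPM in Pax6het and 5473 CPM in wt cells. Blood endothelium had Colec12 at 38.1 CPM in Pax6het against 85.1 CPM in wt and Cd59a at 60.2 CPM in Pax6het against 25.3 CPM in wt. None of the 8 genes for C4a, C5 and the terminal components reached 20 CPM in any class, and of the 10 receptor genes 7 did in myeloid cells, with Itgb2 higher, and 2 in epithelium, with both (Itgam and C1qbp) higher, beside 15.1% of all genes higher in myeloid cells and 13.9% in epithelium.

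The genes with the most similar profile were sought over 14 class and library profiles of at least 50 cells, which share libraries and depth, as a description. C1ra was nearest to C1s1 (Pearson r of log2(CPM + 1) 0.97), with Ntrk2 and Bgn also at 0.97. C1rb was nearest to C1s2 at 0.96, and both were near Il11, at 0.88 for C1rb and 0.92 for C1s2. C1s1 was nearest to Pdgfrb (0.97), a receptor gene of mural and stromal cells. Serping1 was nearest to Srpx2 (0.96), C4b to Dnaic2 (0.92), Cfb to Elmo1 (0.87) and C3 to Sulf2 (0.83).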

How the data were processed

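The deposited values are counts (UMIs of each gene in each barcode, not normalized) that the authors made with Cell Ranger 8.0.0, per the file headers, on GRCm38, per the submitters' processing notes. Barcodes stayed in if they had 500 or more genes, 1000 or more UMIs and no more than 20% of UMIs from mitochondrial genes. Scrublet marked 38 Pax6het (0.398%) and 3 wt cells (0.0295%), too few to have worked, and none were removed. Both libraries were clustered together in scanpy 1.11.5 (2000 variable genes, 30 components, 15 neighbours, Leiden resolution 1.0) without the complement genes. A class name needed 3 fixed markers at 20 CPM or more and at 0.25 or more of the highest cluster. A cluster whose 10 leading genes held a neutrophil and no epithelial marker was held out of the epithelial class, 8.21% of Pax6het and 0.0689% of wt cells. Between 5 and 20 Kera UMIs per 10000 lay 81 Pax6het and 42 wt keratocytes.

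UMIs were summed per class and library and scaled to CPM without mitochondrial genes. Intervals are exact 95% intervals (Poisson for levels, conditional binomial for ratios, Clopper-Pearson for shares). A count of 0 was set to 3 UMIs for a bound. With 1 library per genotype no test was made. The ratio and its interval were tested on simulated data. The alternatives were median-of-ratios and TMM scaling (edgeR 4.0.16 in R 4.3.3), means over cells, other cell filters, cells of 1 sex, other clustering, no CPM limit, a fold of 1.5 and Kera splits at 5 and 20. Members, gene lists and the rule for named genes (all 8 members, and in each class the 3 other complement genes with the largest ratio) were chosen with earlier results of these data known. Likeness took the 3 genes with the highest correlation. Pianp, C1rl, Gm16567, Klra4, Klra8, the C1q genes, Cfp, Itgb2, Itgam, Susd4 in Kera-high cells and the response genes of the closing list were named after their values were seen. Some genes and 1 gene list are not reported here.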

Additional observations from a re-analysis of the deposited data

Results flagged for a closer look

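Some complement genes differed in opposite directions between classes by at least 2-fold, and none of these differences was tested. Csmd1 had a ratio (Pax6het over wt) of 118 in Kera-high keratocytes, against 0.441 in Kera-low keratocytes and 0.279 in myeloid cells. Colec12, a scavenger receptor gene of the collectin family, had a ratio of 6.13 in myeloid cells and 0.447 in blood endothelium.

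Members were also counted in cells that no class comparison used. In the held-out epithelial cluster of 783 Pax6het cells C3 stood at 5.16 CPM and Serping1 at 13.1 CPM. In an unnamed cluster of 268 Pax6het and 2 wt cells, with a median of 1502 UMIs over all of them, C3 stood at 11.99 CPM (6 UMIs) and Serping1 at 46.0 CPM (23 UMIs).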

How the results depend on the processing

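No paired analysis was possible because each genotype has 1 library and the labels carry no replicate numbers. Over 27 ratios of members past 20 CPM, the alternatives gave 375 values, of which 336 stayed inside the 95% interval of the reported ratio. A fold of 1.5 and no CPM limit leave a ratio unchanged, so the 27 values of each stayed inside by construction. For a bound with 0 wt UMIs the interval had no upper limit. Of all values, 20 (of 9 ratios) lay on the other side of 1, most of them for ratios near 1. Among ratios past 2-fold 2 did so, both with each library clustered alone, at 0.442 for C1s1 and 0.327 for Serping1 in myeloid cells. Taking Xist-only cells moved 11 ratios out of their interval, more than any other alternative. In Kera-high keratocytes the ratio stayed between 94.4 and 148 for C1rb and between 91.8 and 978 for C1s2. In Schwann cells that of C4b stayed between 0.586 and 0.764, and in epithelium that of Serping1 between 4.30 and 6.39. No alternative compared epithelial cells within a shared cluster or by Krt12. In the epithelial cluster well filled by both libraries, Serping1 was lower in the Pax6het cells, as given above. With under 20 Krt12 UMIs per 10000 it stood at 29.9 CPM in Pax6het and 37.0 CPM in wt cells, with overlapping intervals. With more Krt12 it stood at 26.6 CPM in Pax6het and 4.76 CPM in wt cells. The part of the epithelial cell mix in this range was not tested.

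Counts of members at least 2-fold higher became 5 in Kera-high keratocytes, 1 in blood endothelium, 1 in Schwann cells and 8 in epithelium with no CPM limit, beside 13.1%, 10.9%, 12.9% and 29.7% of all genes. At a fold of 1.5, 1 was higher in blood endothelium (21.3% of all genes), and 1 was lower in Schwann cells (17.4%) and in myeloid cells (27.6%). For the settings that follow, the share of all genes past 2-fold was not counted. Their counts thus show only which calls changed. With Y-only Pax6het cells 1 was higher in Schwann cells. Without the 5% highest doublet scores 1 member was higher and 1 lower in lymphatic endothelium, and 1 was higher in myeloid cells. With each library clustered alone 1 was higher and 3 lower in myeloid cells, and blood and lymphatic endothelium gave no value. In myeloid cells 1 was lower under means over cells, stricter cell filters or Y-only Pax6het cells. Without the cell with most UMIs of each member, an alternative chosen after seeing the data, 0 were lower in mural cells, and 1 was higher in each of blood endothelium, lymphatic endothelium and myeloid cells. The causes were not tested. Also chosen after seeing the data were the shared cluster, the epithelial class with the held-out cluster, and leaving out shared barcodes. Depth limits the wt library most, with 14 lymphatic, 36 myeloid and 56 mural cells.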

Other observations

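Genes of the acute phase response were counted as a list, with no test. Of 23 acute phase and NF-kB genes, counted where they passed 20 CPM, 5 of 13 were at least 2-fold higher in the Pax6het library in Kera-high keratocytes (among them Ccl2 and Cebpb), 5 of 16 in Kera-low (among them Saa3 and Il6), 6 of 14 in mural cells, 1 of 11 in blood endothelium, 3 of 15 in lymphatic endothelium, 4 of 12 in Schwann cells, 5 of 19 in myeloid cells and 2 of 11 in epithelium. At least 2-fold lower were 1 in Kera-high and 2 in Kera-low keratocytes, 1 in Schwann cells, 1 in myeloid cells, 3 in epithelium and 0 in the other classes. Over all genes the shares higher and lower were 8.36% and 8.54% in Kera-high cells, 7.05% and 7.15% in Kera-low cells, 12.2% and 9.44% in mural cells, 8.67% and 5.25% in blood endothelium, 13.6% and 11.3% in lymphatic endothelium, 14.4% and 8.11% in Schwann cells, 15.1% and 16.9% in myeloid cells, and 13.9% and 6.55% in epithelium.

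C1rb and C1s2 were among 37 genes past 32-fold between the libraries in keratocytes, 25 higher and 12 lower of 7091 tested. Of the 37, 8 (21.6%) lay on chromosome 6, which carried 343 (4.84%) of the tested genes. These were Tac1, C1rb, C1s2, Pianp and Bcat1, higher in the Pax6het library, and Asprv1, Klra4 and Klra8, lower. The 37 also held the Y-linked Eif2s3y, Uty and Ddx3y, higher in the Pax6het library, which alone had Y-only cells. Some of the 37 were higher over all wt cells than in wt keratocytes, such as Slurp1 (2614 against 220 CPM). Of the 8, so was Asprv1 (1211 against 89.3 CPM). The part of sex and of RNA from other cells in the list was not tested. Klra4 and Klra8 belong to a receptor family whose gene number is known to differ between inbred mouse strains. Klra8 had 0 UMIs in Pax6het and 243 in wt keratocytes, and Klra4 had 0 and 131. They start 5.60 and 5.53 Mb from C1ra. The selection was made after the values were seen, and the members C1rb and C1s2 count among the 8. The share on chromosome 6 thus carries no test. Whether the libraries differ in strain was not tested.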
